A study of Mus musculus with 7 samples.

Results

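The intervals described here are short-list peaks between genes: stretches of the mouse genome, each on 1 strand, where RNA precipitated with an EZH2 antibody from wild-type embryonic stem cells piled up and where no annotated gene lies. They were taken from the authors' short list of 10043 peaks by position alone. A peak was kept when most of its bases lay outside every GENCODE M21 gene on its own strand and no gene overlapped it on the opposite strand. This left 2554 intergenic short-list peaks, of 303889 intervals counted in all. Of these, 2436 held no base of a gene, and 118 ran into a same-strand gene with the smaller part of their length. At the edge of the rule, the highest share of bases inside a same-strand gene was 48.5% among the peaks kept, and the lowest was 50.3% among short-list peaks placed in genes. Another 5578 short-list peaks were intronic, 1375 were antisense to a gene and 536 were exonic.

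RNA bound in cells was counted by RIP-seq, in which an antibody pulls down a protein and the RNA that comes with it is sequenced. The 7 libraries came from 3 genotypes of male CAST/B6 embryonic stem cells (strain label CAST/B6 Male Rosa26-RMCE). The SAFB DKO group lacked both Safb and Safb2 (n = 2, clones 13 and 4), the EZH2 KO group lacked Ezh2 (n = 2, clones 12 and 19), and the WT group was the parental line with clones 20 and 44 (n = 3). All cells grew in 15% serum at 37 °C and 5% CO2 and had 3 days of doxycycline; what it induced is not stated in the labels. Each knockout library is thus 1 clone, and p-values measure the spread between clones, pooled over the 3 genotypes.

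EZH2 is the catalytic subunit of Polycomb repressive complex 2, which methylates histone H3 at lysine 27 and keeps developmental genes silent. SAFB and its paralog SAFB2 are abundant nuclear proteins that bind RNA and scaffold-attachment DNA. According to the title of the series, the antibody, raised against the human EZH2 protein, also recognises SAFB, so the SAFB DKO asks which precipitated RNA needs SAFB proteins and the EZH2 KO asks which needs EZH2. RNA between genes comes, among other sources, from transcription that runs past a gene's 3′ end, from unannotated noncoding genes and from divergent transcription at promoters and enhancers.

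Library totals were 15812517 to 18738499 counts in SAFB DKO, 7050832 to 8353603 in EZH2 KO and 19024702 to 21832539 in WT. Levels below are CPM, counts scaled to library size, with TMM factors from intervals outside the authors' filtered list. They measure RNA that came down with the antibody, not total RNA of the cells. The targeted genes matched the labels: intervals of Safb summed to 0.592 to 1.41 CPM in SAFB DKO and 117 to 245 CPM in WT, those of Safb2 to 0.807 to 2.92 CPM in SAFB DKO and 124 to 302 CPM in WT, and those of Ezh2 to 0.157 to 2.26 CPM in EZH2 KO and 165 to 202 CPM in WT. In EZH2 KO, intervals of Safb summed to 284 to 314 CPM and those of Safb2 to 615.5 to 749 CPM, above every WT library. WT replicate 3 was the lowest WT library for both. It had 117 CPM for Safb and 124 CPM for Safb2, against 239 to 245 CPM and 289 to 302 CPM in WT replicates 1 and 2. The 8 stem cell markers summed to 1750 to 1767 CPM in SAFB DKO. Their sum was 1455 to 1561 CPM in EZH2 KO and 1408 to 1495 CPM in WT. Single stem cell markers differed more than their sum. Pou5f1 had 325 to 330 CPM in SAFB DKO, 87.4 to 101 CPM in EZH2 KO and 188 to 207 CPM in WT. Nanog, Esrrb, Dppa5a, Tdgf1 and Utf1 kept that order. Sox2 and Zfp42 had the reverse one (for Sox2, 323 to 325 CPM, 718 to 741 CPM and 419 to 443.5 CPM). Of 8 fibroblast markers, Col1a2, Postn, Lum and Dcn had no interval and the other 4 summed to 6.40 to 12.6 CPM over all libraries. Neural markers (5 of 6 with intervals) summed to 127.5 to 130.9 CPM in SAFB DKO, 162 to 179.5 CPM in EZH2 KO and 232 to 316 CPM in WT. Nes carried most of that difference (63.5 to 67.8 CPM in SAFB DKO, 102 to 119 CPM in EZH2 KO and 168 to 242.5 CPM in WT), while Tubb3 was highest in SAFB DKO (43.5 to 49.2 CPM, 16.5 to 19.0 CPM and 27.8 to 31.0 CPM in the same order) and Neurog2 had no interval. Primitive endoderm markers (4 of 6 with intervals, not Sox17 or Foxa2) summed to 9.26 to 10.8 CPM in SAFB DKO, 20.0 to 20.3 CPM in EZH2 KO and 18.5 to 20.9 CPM in WT. Mesoderm markers (3 of 4, not Mesp1) summed to 8.07 to 8.34 CPM in SAFB DKO, 14.9 to 26.1 CPM in EZH2 KO and 15.5 to 17.2 CPM in WT. The part of any of these markers in the results was not tested. The EZH2 KO columns are named by another pattern than the rest, and the labels do not say whether those libraries were handled apart; any such difference cannot be told apart from genotype. Within genotypes, the correlation of unscaled log2 counts was lowest between the EZH2 KO libraries, at 0.752. It was 0.865 between the SAFB DKO libraries and 0.909 to 0.915 among the WT libraries. EZH2 KO replicate 2 correlated with the WT libraries at 0.75 to 0.779. The EZH2 KO libraries had the fewest counts, and the part of depth in these correlations was not tested.

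Most of these peaks have no annotated transcript whose bases could be shown, and sequence was read for those that hold a RefSeq start window (250 bases before to 50 after a gene's start). A same-strand start window overlapped 18 peaks, and in 8 peaks the whole window lay inside the peak. Of these windows, 4, all of RefSeq long noncoding RNA genes, are printed to show what the precipitated stretches look like (RefSeq, GRCm38.p6, 5′ to 3′ on the strand of the peak). Capitals mark GAAGA, a purine motif of the kind that SAFB is known to bind in human cells.
Gm46780, chr2:173290081-173290380, minus strand: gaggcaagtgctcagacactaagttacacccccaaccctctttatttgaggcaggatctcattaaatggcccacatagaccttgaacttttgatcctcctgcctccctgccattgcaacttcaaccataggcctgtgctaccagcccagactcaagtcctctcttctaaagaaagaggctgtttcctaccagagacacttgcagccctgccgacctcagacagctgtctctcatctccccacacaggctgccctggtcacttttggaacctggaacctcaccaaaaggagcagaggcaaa
Gm39181, chr8:53584325-53584624, minus strand: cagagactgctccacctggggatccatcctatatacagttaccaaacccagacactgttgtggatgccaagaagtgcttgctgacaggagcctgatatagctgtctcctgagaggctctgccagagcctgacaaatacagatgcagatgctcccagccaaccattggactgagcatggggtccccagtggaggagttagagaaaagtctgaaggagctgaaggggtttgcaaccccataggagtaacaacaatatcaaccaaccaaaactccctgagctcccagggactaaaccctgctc
Gm34722, chr5:114480174-114480473, minus strand: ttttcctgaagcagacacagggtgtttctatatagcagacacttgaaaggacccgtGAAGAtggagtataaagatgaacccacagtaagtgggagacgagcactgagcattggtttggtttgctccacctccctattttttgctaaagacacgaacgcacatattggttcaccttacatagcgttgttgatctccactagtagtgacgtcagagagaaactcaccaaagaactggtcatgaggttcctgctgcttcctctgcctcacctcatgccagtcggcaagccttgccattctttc
Gm33486, chrX:105003847-105004146, minus strand: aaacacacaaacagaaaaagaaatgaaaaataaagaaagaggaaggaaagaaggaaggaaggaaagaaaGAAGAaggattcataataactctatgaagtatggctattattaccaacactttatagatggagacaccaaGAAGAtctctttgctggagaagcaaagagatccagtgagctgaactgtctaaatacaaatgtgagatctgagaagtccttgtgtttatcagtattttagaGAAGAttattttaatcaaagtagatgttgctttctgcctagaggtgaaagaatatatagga
GAAGA stood 3 times in the Gm33486 window, once in the Gm34722 window and not at all in the Gm46780 and Gm39181 windows. Purines made up 65.0% of the Gm33486 window and 44.3% of the Gm46780 window. Over the 18 windows that overlapped a peak on its strand, 13 held GAAGA (72.2%) and 8 held it on the other strand (44.4%), with a median purine content of 53.7%. Among all 32851 RefSeq start windows of that length, 34.6% held it on the gene's strand and 34.0% on the other, with a median purine content of 50.3%. GAAGA was counted over whole windows, and some shared few bases with their peak (8 at Gm19792, 10 at Snrpg). A match thus need not lie in the peak. Median GC content was 48.5% in the 18 windows and 52.7% in all, and its part was not tested. A match describes letters in a window and locates no binding.

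The Gm46780 peak (chr2:173288638-173290724) had 2.37 and 1.56 CPM in SAFB DKO, 35.5 and 39.3 CPM in EZH2 KO, and 4.37, 4.05 and 5.59 CPM in WT. Its EZH2 KO libraries were far above and its SAFB DKO libraries below every WT library. It fell in SAFB DKO (log2 fold change -1.23 ± 0.28 SE, edgeR adjusted p = 0.00444; 0.0638 without SAFB DKO replicate 2) and rose in EZH2 KO (3.00 ± 0.25, adjusted p = 6.53e-06). The Gm39181 peak (chr8:53584083-53585280) had 0.365 and 0.646 CPM in SAFB DKO, 6.77 and 11.8 CPM in EZH2 KO, and 2.30, 3.06 and 2.51 CPM in WT. It too fell in SAFB DKO (-2.38, adjusted p = 0.00121) and rose in EZH2 KO (1.82, adjusted p = 0.00359). The Gm34722 peak (chr5:114479718-114481738) fell in SAFB DKO (-2.41, adjusted p = 2.47e-06) and rose in EZH2 KO (0.80, adjusted p = 0.0236). That rise missed the threshold without any 1 of the 3 WT libraries (adjusted p 0.0754 to 0.0948) and with column totals as the scaling (0.0687). It was 0.38 without EZH2 KO replicate 2. The Gm33486 peak (chrX:105002869-105004149) was near the limit of counting, with 9 and 0 counts in SAFB DKO, 0 and 9 counts in EZH2 KO, and 43, 36 and 38 counts in WT. Its fall in SAFB DKO (-3.08, adjusted p = 0.0304) was lost without any 1 WT library or without SAFB DKO replicate 2 (adjusted p 0.115 to 0.165).

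One peak holds annotated microRNA sequence. It lies at chr6:31062744-31064034 on the minus strand, touches the Mir29a hairpin and contains both mature products of Mir29b-1, from a family of microRNAs known for targeting collagen and DNA methyltransferase mRNAs. The mature sequences are shown with the seed, bases 2 to 8, in capitals (RefSeq, GRCm38.p6).
mmu-miR-29b-3p, chr6:31063025-31063047: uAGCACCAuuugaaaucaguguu
mmu-miR-29b-1-5p, chr6:31063067-31063088: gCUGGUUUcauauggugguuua
The peak had 0.912 and 0.484 CPM in SAFB DKO, 1.35 and 2.20 CPM in EZH2 KO, and 2.94, 3.25 and 3.34 CPM in WT. Both knockouts lay below every WT library. The fall passed the test in SAFB DKO (-2.16 ± 0.49 SE, edgeR adjusted p = 0.00398; 0.0519 without SAFB DKO replicate 2), whereas the EZH2 KO value did not (-0.84 ± 0.49, adjusted p = 0.257). The peak covers a stretch of precursor, and mature microRNA was not measured.

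Intergenic peaks lost most of their counts when the SAFB proteins were absent. They held 0.241% and 0.285% of all counts in the SAFB DKO libraries, 2.95% and 3.21% in the EZH2 KO libraries, and 1.88%, 1.78% and 1.95% in the WT libraries. Every SAFB DKO share lay below and every EZH2 KO share above every WT share. The peaks were listed for their counts in these same WT libraries, a choice that favours falls from WT. In bulk libraries, fewer cells holding an RNA and less of it per cell cannot be told apart. The mean share was 0.263% ± 0.0308 (SD, n = 2) in SAFB DKO and 1.87% ± 0.0863 (n = 3) in WT, 7.10-fold lower in SAFB DKO, with p = 0.1 in an exact two-sided permutation test over libraries, the smallest p this design allows. In EZH2 KO the mean share was 3.08% ± 0.186 (SD, n = 2), 1.65-fold higher than in WT, also at the smallest exact permutation p of 0.1. SAFB DKO against EZH2 KO gave an 11.7-fold lower share, with an exact permutation p of 0.333, the smallest for 2 against 2. The 95% exact Clopper-Pearson intervals of the single shares spanned 0.239% to 0.288% in SAFB DKO, 2.93% to 3.22% in EZH2 KO and 1.77% to 1.96% in WT, and cover counting error only.

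Within the short list, the intergenic peaks kept nearly the same portion in each genotype. Their share of short-list counts was 13.1% and 13.4% in SAFB DKO, 12.2% and 11.7% in EZH2 KO, and 11.9%, 11.3% and 13.0% in WT. The SAFB DKO libraries lay just above the WT range (exact permutation p = 0.2), and the EZH2 KO libraries lay inside it (exact permutation p = 0.9). The log2 ratio of their counts to those of intronic short-list peaks averaged -1.92 ± 0.0304 (SD, n = 2) in SAFB DKO and -2.11 ± 0.0893 (n = 3) in WT, a difference of 0.18 (exact permutation p = 0.2). Against antisense short-list peaks the ratio averaged 0.76 ± 0.0496 in SAFB DKO and 0.79 ± 0.0642 in WT, a difference of -0.03 (exact permutation p = 0.8). With 2 and 3 libraries such tests could not show a small difference. The short-list total also holds exonic peaks, and the highest exonic value was 24360 to 31760 CPM per WT library. It was 2250 to 2304 CPM in SAFB DKO and 37300 to 66760 CPM in EZH2 KO. The highest intergenic value was 414 to 531 CPM per WT library. Shares of short-list counts without such exonic peaks were not computed.

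The ratio to intergenic intervals outside the filtered list moved much further. It averaged -3.27 ± 0.196 (SD, n = 2) in SAFB DKO and -0.998 ± 0.0568 (n = 3) in WT. Short-list peaks between genes were thus 4.83-fold lower in SAFB DKO relative to these unlisted intervals (exact permutation p = 0.1, the smallest possible). In EZH2 KO this ratio was -0.45 ± 0.0487 (n = 2), 0.55 above WT (exact permutation p = 0.1). Short-list peaks had 93 or more pooled WT counts and other filtered peaks 92 or fewer; a choice on WT counts favours falls from WT in any knockout. SAFB DKO against EZH2 KO uses no WT library, and there the ratio was 7.05-fold lower in SAFB DKO (exact permutation p = 0.333).

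**Figure D1:**
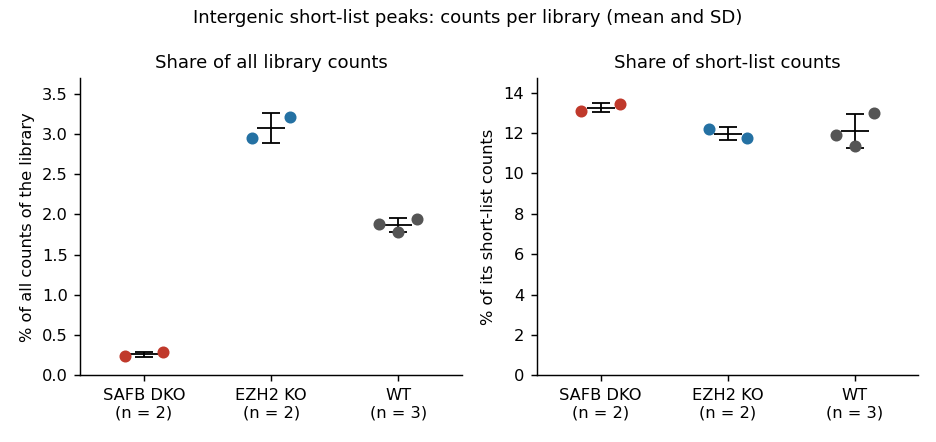
Share of all library counts (left) and of short-list counts (right) that fell in the 2554 intergenic short-list peaks, in percent, with 1 dot per library and the mean with SD in black. Shares of all counts are 0.241% to 0.285% in SAFB DKO, 2.95% to 3.21% in EZH2 KO and 1.78% to 1.95% in WT, while shares of short-list counts are 11.3% to 13.4% in all 3 genotypes.

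Tested 1 by 1, nearly all of the intergenic peaks fell in SAFB DKO against WT. By edgeR's quasi-likelihood test with Benjamini-Hochberg adjustment over all 192964 intervals tested, 2428 of 2554 fell (95.1%) and 0 rose. At an unadjusted p under 0.05, 2521 fell and 0 rose; DESeq2 called 2439 as fallen and 0 as risen. Among all intervals tested, 17.4% fell and 2.26% rose. All 2554 peaks passed the filter on low counts, as peaks listed for their WT counts would. That way of listing also favours falls from WT. The median log2 fold change was -3.16, an 8.93-fold lower level, with the middle 50% of the peaks between -3.94 and -2.51; the median over all intervals tested was -0.17. Both SAFB DKO libraries lay below all 3 WT libraries in 2540 peaks (99.5%), against 34.1% of all intervals tested. The 101 peaks with no count in either SAFB DKO library were at least 19.9-fold to at least 94.1-fold lower than in WT, taking 3 counts over the group as the floor, and setting them at that bound left the median at -3.16.

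In EZH2 KO against WT the same peaks leaned the other way. Of 2554, 816 rose (31.9%) and 59 fell (2.31%), with a median log2 fold change of 0.76 (1.70-fold higher) and the middle 50% between 0.09 and 1.27. Among all intervals tested, 7.5% rose and 8.07% fell, and their median was -0.21. Both EZH2 KO libraries lay above all 3 WT libraries in 1378 peaks (54.0%) and below them in 237 (9.28%), against 20.2% and 31.2% of all intervals tested. The number that rose depended on the libraries: it was 481 to 498 when any 1 WT library was left out, 962 without EZH2 KO replicate 1 and 658 without EZH2 KO replicate 2. The number that fell was 13 to 20 without 1 WT library and 225 without EZH2 KO replicate 2.

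SAFB DKO against EZH2 KO, which sets the knockouts against each other, gave 2329 falls (91.2%) and 0 rises. The filter on low counts and the estimate of spread still came from all 7 libraries, WT included. The unadjusted test gave 2384 falls and 2 rises, and DESeq2 gave 2333 and 0. Among all intervals tested, 23.3% fell and 16.6% rose. The median log2 fold change was -3.95, a 15.5-fold lower level in SAFB DKO, against 0.08 over all intervals. Both SAFB DKO libraries lay below both EZH2 KO libraries in 2343 peaks (91.7%), against 30.3% of all intervals tested. With peaks at 0 in 1 group set at their bound, the median was -3.94. When only the 2 knockout groups were filtered and fitted, 2274 of the peaks passed the filter. Of these, 2004 fell (88.1%) and 0 rose.

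**Figure D2:**
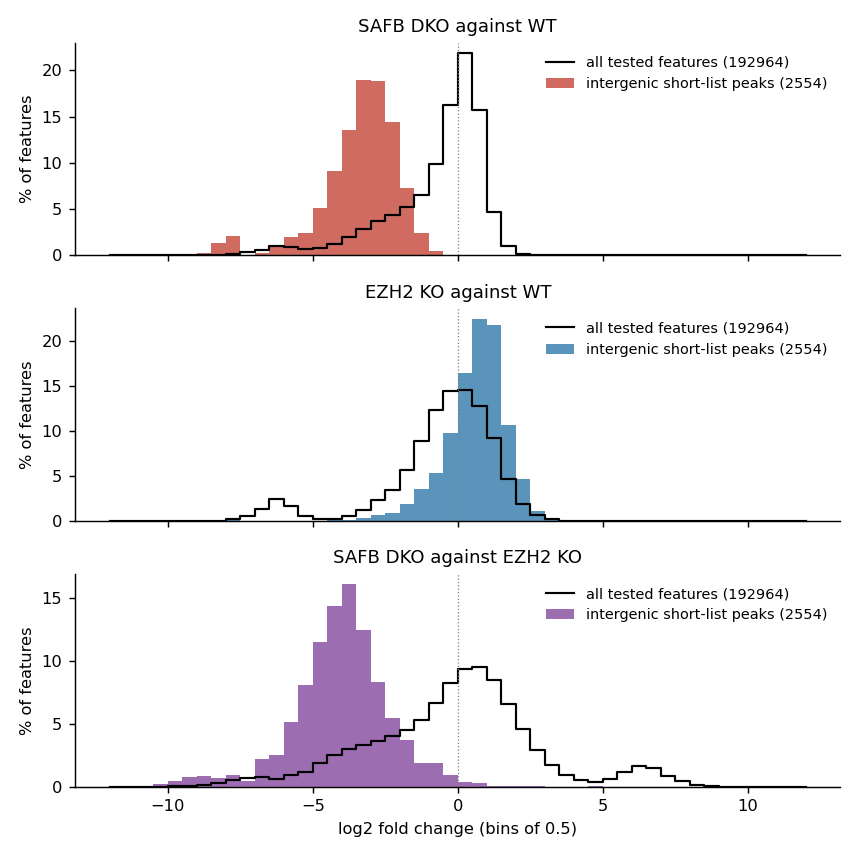
Percent of features per log2 fold change bin of 0.5 for the 2554 intergenic short-list peaks (bars) and all 192964 tested features (black line), in SAFB DKO against WT, EZH2 KO against WT and SAFB DKO against EZH2 KO. The bars centre on -3.16, 0.76 and -3.95, and the line on -0.17, -0.21 and 0.08; peaks with no count in SAFB DKO lie at the far left, and their fitted values set no size.

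Taking both knockouts at once, 798 peaks (31.2%) fell in SAFB DKO and rose in EZH2 KO. Since 95.1% of the peaks fell in SAFB DKO and 31.9% rose in EZH2 KO, most of this overlap was bound to occur. Over all intervals tested, 17.4% fell in SAFB DKO and 7.5% rose in EZH2 KO, and joint shares there were not computed. Each of the 798 was also called in SAFB DKO against EZH2 KO, which this choice of peaks made all but certain. Another 1575 (61.7%) fell in SAFB DKO and were not called in EZH2 KO, 55 fell in both, 18 rose in EZH2 KO without a call in SAFB DKO, 4 fell in EZH2 KO alone and 104 were called in neither. Both comparisons share the WT libraries. The 816 peaks that rose in EZH2 KO were long, with a median of 1448.5 bases and 316.5 pooled WT counts. The 59 that fell had a median of 503 bases and 220 counts. The 126 peaks not called in SAFB DKO had a median of 677.5 bases and 112 counts, close to the list's lower limit of 93, against 1146.5 bases and 208 counts for those that fell.

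Length and depth moved together with these shares. Among the 516 peaks of up to 500 bases, with a median of 140 pooled WT counts, 91.1% fell in SAFB DKO, 11.6% rose in EZH2 KO and 5.62% fell in EZH2 KO. Among the 788 peaks over 1500 bases, with a median of 405 counts, 98.2% fell in SAFB DKO, 48.1% rose in EZH2 KO and 1.40% fell in EZH2 KO. The median log2 fold change was -2.81 for the short peaks and -3.32 for the long ones in SAFB DKO, and 0.29 and 0.93 in EZH2 KO. The part of depth in this was not tested.

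Other classes of the short list behaved much like the intergenic peaks in SAFB DKO. There, 98.2% of intronic, 95.6% of antisense and 95.9% of exonic short-list peaks fell, with medians of -3.33, -3.18 and -2.75. In EZH2 KO, 49.7% of intronic, 27.7% of antisense and 59.3% of exonic short-list peaks rose, with medians of 0.97, 0.62 and 1.03, beside 31.9% and 0.76 for the intergenic ones. Tested intergenic peaks on the filtered list but outside the short list (4689) had a median of -3.14 in SAFB DKO, beside -3.16 for the intergenic short-list peaks. Of them, 48.4% fell and 0 rose there, and 8.32% rose in EZH2 KO. Their median in SAFB DKO against EZH2 KO was -3.86, beside -3.95. Intergenic intervals outside the filtered list that passed the filter (11567) were less uniform, with 30.8% that fell and 0.545% that rose in SAFB DKO and a median of -1.57. In EZH2 KO, 10.7% of them rose and 3.99% fell. All 30469 such intervals, tested or not, had a median length of 125 bases, against 1120.5 for the intergenic short-list peaks.

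**Figure D3:**
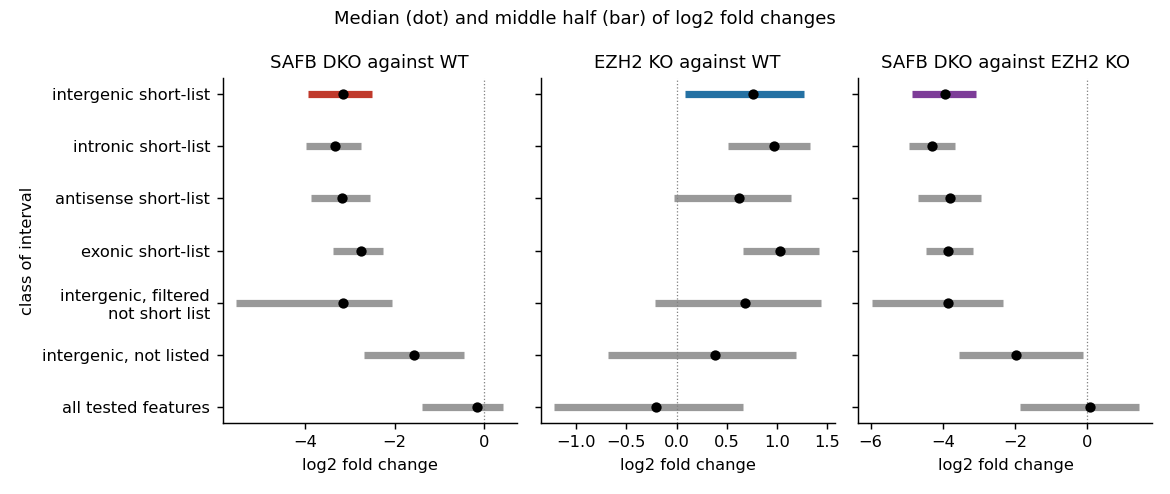
Median (dot) and middle 50% (bar) of log2 fold changes for 7 classes of interval, in SAFB DKO against WT (left), EZH2 KO against WT (middle) and SAFB DKO against EZH2 KO (right). Medians of the 4 short-list classes lie between -3.33 and -2.75 in the left panel and between 0.62 and 1.03 in the middle one, while unlisted intergenic intervals lie at -1.57 and 0.38.

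The peak with the second highest mean level illustrates the pattern at an imprinted locus. It lies 3.14 kb beyond the 3′ end of Nespas (chr2:174275693-174278097, minus strand), the noncoding RNA transcribed antisense to the Gnas cluster. It had 25.9 and 23.5 CPM in SAFB DKO, 676.5 and 904 CPM in EZH2 KO, and 375, 406 and 311 CPM in WT. The 3 genotypes did not overlap. Its log2 fold change was -3.88 ± 0.18 (SE, edgeR adjusted p = 3e-09) in SAFB DKO and 1.12 ± 0.15 (adjusted p = 0.000131) in EZH2 KO.

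The peak with the highest mean level partly overlapped Rbmxl2, a gene of the RBMX family of RNA-binding proteins (chr7:107210613-107213349, plus strand). It had 27.9 and 63.7 CPM in SAFB DKO, 665 and 1107 CPM in EZH2 KO, and 414, 453 and 531 CPM in WT. This peak fell in SAFB DKO (-3.35 ± 0.29, adjusted p = 2.93e-07) and rose in EZH2 KO (0.93 ± 0.25, adjusted p = 0.0188). The rise missed the threshold without any 1 WT library or without EZH2 KO replicate 2 (adjusted p 0.0671 to 0.136). A peak that partly overlapped Gm40040 (chr3:41475732-41478095, minus strand), had the widest gap between the knockouts of these abundant peaks. Its levels were 9.03 and 6.94 CPM in SAFB DKO, 488 and 609 CPM in EZH2 KO, and 162, 180 and 101 CPM in WT. SAFB DKO against EZH2 KO gave a log2 fold change of -6.10 (adjusted p = 2.58e-10), and EZH2 KO rose against WT (1.89 ± 0.20, adjusted p = 2.69e-05).

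A plus-strand peak 4.85 kb beyond the 3′ end of Rif1, which encodes a regulator of replication timing, had 15.7 and 17.2 CPM in SAFB DKO, 248 and 383 CPM in EZH2 KO, and 199, 158 and 264.5 CPM in WT (chr2:52127235-52129353). One EZH2 KO library lay inside the WT range. The fall in SAFB DKO passed the test (-3.65 ± 0.24, adjusted p = 2.11e-08), and its EZH2 KO value was 0.61 ± 0.20 (adjusted p = 0.0505; 0.0028 to 0.0316 without EZH2 KO replicate 1 or WT replicate 3, and 0.0369 with DESeq2 size factors). A fainter peak lay on the minus strand over the same bases (chr2:52127408-52129149), at 0.456 and 0.377 CPM in SAFB DKO, 7.67 and 9.91 CPM in EZH2 KO, and 7.49, 5.51 and 6.94 CPM in WT. It fell in SAFB DKO as well (-3.96 ± 0.40, adjusted p = 1.46e-06). In all, 16 pairs of intergenic peaks overlapped on opposite strands, and in 14 of them both peaks fell in SAFB DKO. Of all intergenic peaks, 95.1% fell in SAFB DKO.

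The peak at chr8:107678023-107680818 (minus strand), 9.81 kb beyond Gm8940, had a WT level about as far above SAFB DKO as below EZH2 KO on the log2 scale. It had 22.2 and 18.4 CPM in SAFB DKO, 253 and 327 CPM in EZH2 KO, and 78.5, 66.4 and 85.3 CPM in WT. The log2 fold changes were -1.92 ± 0.18 in SAFB DKO and 1.92 ± 0.17 in EZH2 KO (adjusted p = 7.42e-07 and 8.53e-06). The other 5 of the 10 most abundant peaks lay at 2700038G22Rik, at CR555305.3 (both partly overlapped), 4.83 kb from the 3′ end of Trp53inp1, 8.09 kb from CT010496.1 and 4.65 kb beyond Gm14403. Over all 10, levels ran from 6.94 to 63.7 CPM in SAFB DKO, from 208 to 1107 CPM in EZH2 KO and from 66.4 to 531 CPM in WT. All 10 fell in SAFB DKO (-4.21 to -1.92), 9 rose in EZH2 KO (0.85 to 1.92), and the 1 beyond Rif1 did not pass.

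**Figure D4:**
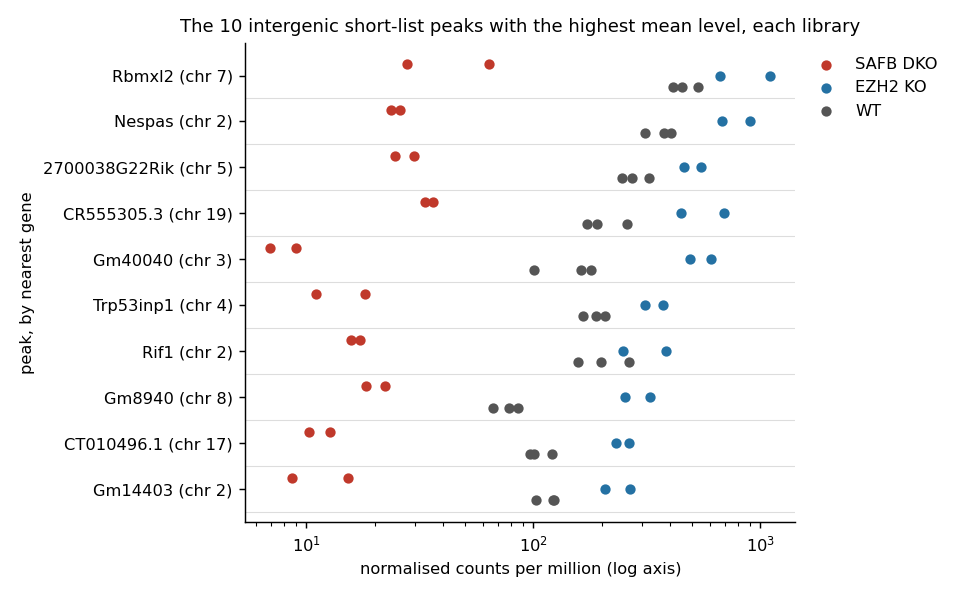
Normalised CPM (log axis) of the 10 intergenic short-list peaks with the highest mean level, labelled by the nearest gene, with 1 dot per library in SAFB DKO (red), EZH2 KO (blue) and WT (grey). SAFB DKO dots lie between 6.94 and 63.7, EZH2 KO dots between 208 and 1107 and WT dots between 66.4 and 531.

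Among the deepest losses in SAFB DKO were peaks with no read left. Such losses were seen at chr17:82282326-82283776 (at least 76.9-fold), at chr13:9675620-9677962 6.87 kb beyond Zmynd11 (at least 65.7-fold), at chr9:6841420-6843298 (at least 59.2-fold) and at chr13:86113897-86115296 (at least 55.8-fold). Each of these 4 had 0 counts in both SAFB DKO libraries and 66 to 150 counts per WT library, and adjusted p-values of the 4 were 5.48e-07 to 4.94e-06. The peak on chromosome 17 also rose in EZH2 KO (1.18, adjusted p = 0.0426, not called without any 1 WT library or EZH2 KO replicate 2, adjusted p 0.059 to 0.433, nor with 2 other scalings, adjusted p 0.0622 and 0.0775). The peak at chr13:86113897-86115296 fell in EZH2 KO as well (-1.57, adjusted p = 0.0471; 0.0894 to 0.199 without EZH2 KO replicate 1 or any 1 WT library). The 5 deepest differences between the knockouts were of the same kind, with 0 counts in both SAFB DKO libraries and log2 fold changes of -10.73 to -10.09 that set no size; they were at least 111.7-fold to at least 173.8-fold lower in SAFB DKO than in EZH2 KO. They include the peak on chromosome 17. All 5 rose in EZH2 KO against WT (1.18 to 2.67), but without EZH2 KO replicate 2 the peak on chromosome 17 and the peak at chr14:43339235-43339907 missed the threshold (adjusted p = 0.433 and 0.102).

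The largest rises in EZH2 KO were of moderate abundance. The peak that partly overlapped D7Ertd128e (chr7:30884277-30885731, plus strand) had 0.274 and 0.807 CPM in SAFB DKO, 30.1 and 27.8 CPM in EZH2 KO, and 2.30, 2.87 and 2.35 CPM in WT. It rose in EZH2 KO by 3.53 ± 0.30 (SE, adjusted p = 6.88e-06) and fell in SAFB DKO (-2.24 ± 0.40, adjusted p = 0.00054). A peak 0.247 kb from the start of Adarb1, which encodes an RNA-editing adenosine deaminase, and running away from it (chr10:77418518-77420029), had 0.365 and 0.70 CPM in SAFB DKO, 22.1 and 28.6 CPM in EZH2 KO, and 2.48, 3.20 and 3.45 CPM in WT. It rose in EZH2 KO by 3.06 ± 0.28 (adjusted p = 1.35e-05). The other 3 of the 5 largest rises were at chr10:120533527-120533950, chr3:149112645-149113859 and Gm12792 (3.06 to 3.27), and all 5 fell in SAFB DKO (-2.52 to -1.44). At Gm12792 that fall missed the threshold without WT replicate 1 or 2 (adjusted p = 0.0561 and 0.0573). It also missed with column totals as the scaling (adjusted p = 0.0543) and with DESeq2 size factors (0.0502). Its log2 fold change was -1.61 without SAFB DKO replicate 1 and -1.33 without replicate 2. At chr10:120533527-120533950 the fall missed without WT replicate 3 (adjusted p = 0.0569) and was -1.265 without SAFB DKO replicate 1.

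The largest falls in EZH2 KO were short peaks with few counts. A 303-base peak 3.23 kb from the 3′ end of Sclt1, a gene that lies on the other strand, had 1 and 8 counts in SAFB DKO, 0 and 0 counts in EZH2 KO, and 47, 44 and 29 counts in WT (chr3:41623188-41623490). It was at least 8.31-fold lower in EZH2 KO than in WT (edgeR adjusted p = 0.00849). A 165-base peak 2.45 kb beyond Atp10a had 3 and 6 counts in SAFB DKO, 0 and 0 in EZH2 KO, and 13, 41 and 46 in WT (chr7:58831868-58832032), at least 7.13-fold lower in EZH2 KO (adjusted p = 0.0138; 0.0595 and 0.075 without WT replicate 2 or 3). The remaining 3, at chr9:58211945-58212561, chr7:122031579-122031837 and chr1:107628947-107629056, had 0 to 2 counts per EZH2 KO library and 20 to 68 per WT library. The falls in EZH2 KO at the first 2 of these 3 missed the threshold without some WT libraries (adjusted p 0.0552 to 0.127). Of the 5 peaks, 4 also fell in SAFB DKO, but each of these 4 calls was lost without at least 1 library (adjusted p 0.0538 to 0.174 without 1 WT library). The call at chr9:58211945-58212561 was also lost with other scalings (adjusted p 0.0566 to 0.0799). None of the 5 was called in SAFB DKO against EZH2 KO (adjusted p 0.0925 to 0.159).

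In all, 126 peaks were not called in SAFB DKO, and the 5 with the highest fold change there did not move alike. At Gm41392 (chr15:96498413-96500146, plus strand) levels were 2.74 and 2.48 CPM in SAFB DKO, 10.7 and 8.65 CPM in EZH2 KO, and 1.88, 3.06 and 2.87 CPM in WT. SAFB DKO overlapped WT (0.00 ± 0.34, adjusted p = 0.997) while EZH2 KO rose (1.89 ± 0.34, adjusted p = 0.00135), and SAFB DKO against EZH2 KO was called (-1.89, adjusted p = 0.000842). A peak that partly overlapped Gm45494, 3.98 kb from Yap1 (chr9:8008581-8010163), had 2.78 and 1.24 CPM in SAFB DKO, 9.32 and 7.39 CPM in EZH2 KO, and 2.90, 3.48 and 2.71 CPM in WT. It rose in EZH2 KO (1.46 ± 0.37, adjusted p = 0.0142; 0.0502 to 0.0749 without EZH2 KO replicate 1 or any 1 WT library). The highest fold change of all, 0.34 ± 0.80 (adjusted p = 0.85), belonged to a peak at the start of the chromosome 9 assembly (chr9:3000006-3000533), where libraries of 1 genotype differed widely. It had 0.502 and 4.68 CPM in SAFB DKO, 0 and 0.786 CPM in EZH2 KO, and 1.15, 0.706 and 4.28 CPM in WT; the ends of assembled chromosomes hold repeated sequence, so its counts are uncertain. A peak at chr11:88010506-88010905 was not called in any comparison (-0.43 in SAFB DKO, adjusted p = 0.645). A peak on chromosome 18, 29.5 kb beyond AC126807.2, was at -0.49 in SAFB DKO (adjusted p = 0.492) and rose in EZH2 KO (2.92 ± 0.37, adjusted p = 0.000113), with 1.82 and 0.70 CPM in SAFB DKO, 12.9 and 14.6 CPM in EZH2 KO, and 2.30, 1.65 and 1.46 CPM in WT.

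Peaks near genes and far from them mostly fell in SAFB DKO. Of the peaks, 1118 lay within 5 kb of a gene on either strand, 1154 at 5 to 50 kb and 164 over 50 kb away. In SAFB DKO 96.6%, 94.3% and 90.2% of these fell, with medians of -3.21, -3.15 and -3.01, and 94.9% of the 118 that overlap a gene fell. In EZH2 KO 31.9%, 32.1% and 23.8% rose while 1.34%, 2.43% and 8.54% fell. The far peaks were shorter and fainter than the near ones, with a median length of 829 against 1083.5 bases and a median WT level of 2.36 against 3.61 CPM, and the part of this was not tested.

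The commonest place was downstream of a gene on the same strand, which held 1133 peaks (44.4%) at a median distance of 4528 bases from the nearest gene. Another 428 (16.8%) lay upstream of a same-strand gene, 436 (17.1%) diverged from a gene on the other strand and 439 (17.2%) faced one. In SAFB DKO 96.0% of the downstream, 94.2% of the upstream, 96.1% of the divergent and 92.5% of the convergent peaks fell, with medians of -3.21, -3.09, -3.22 and -3.06. In EZH2 KO 27.5%, 34.1%, 35.1% and 35.3% of them rose. Both strands were used alike, with 1279 peaks on the plus and 1275 on the minus strand. Another interval on the same strand lay within 1 kb of 1587 peaks (62.1%), and 530 (20.8%) overlapped a RefSeq gene on either strand, 236 of them a long noncoding RNA gene.

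Many peaks came in strings along 1 strand. With gaps of at most 10 kb, 983 peaks (38.5%) fell into 398 runs of 2 or more, of which 290 were pairs and 20 had 5 or more peaks. In 369 of the 398 runs every peak fell in SAFB DKO. In EZH2 KO every peak rose in 57 runs, some but not all rose in 154, none rose in 187, and 1 run held both a rise and a fall. Of all intergenic peaks, 95.1% fell in SAFB DKO and 31.9% rose in EZH2 KO. Whether runs depart from these shares was not tested. Gaps of at most 5 kb gave 360 runs with 857 peaks and gaps of at most 50 kb gave 448 runs with 1233.

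The run with the most peaks held 8 over 19.0 kb of the minus strand around Gm2053 (chr1:4716546-4735571). Its summed level was 1.46 and 3.07 CPM in SAFB DKO, 52.9 and 71.2 CPM in EZH2 KO, and 34.2, 34.3 and 50.9 CPM in WT. All 8 peaks fell in SAFB DKO (-8.69 to -3.04, the lowest of them at 0 in both libraries, which gives only the bound of at least 42.2-fold), and none was called in EZH2 KO, where values ran from 0.30 to 1.01. Without 1 EZH2 KO library, 2 of the 8 were called as rises there (chr1:4716546-4717499, adjusted p = 0.0388 without replicate 2, and chr1:4731905-4732246, adjusted p = 0.0477 without replicate 1). At 1 of the 8 (chr1:4729320-4729969) the DESeq2 adjusted p in SAFB DKO was 0.0506. A run of 7 peaks between Gm29895 and Gm45288 (chr8:78077140-78094989, plus strand) had 6.16 and 6.40 CPM in SAFB DKO, 70.1 and 86.7 CPM in EZH2 KO, and 67.6, 90.6 and 88.4 CPM in WT. All 7 fell in SAFB DKO (-4.58 to -2.70), and EZH2 KO values ran from -1.06 to 0.02 with no call. The EZH2 KO sums lay within the WT range.

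The third run lay between AW146154 and Gm6871 (chr7:41513999-41540340, minus strand), and there the knockouts parted. Its 7 peaks summed to 6.34 and 7.37 CPM in SAFB DKO, 217 and 270 CPM in EZH2 KO, and 69.6, 71.4 and 67.3 CPM in WT. All 7 fell in SAFB DKO (-4.17 to -2.25) and all 7 rose in EZH2 KO (1.46 to 2.00, adjusted p 2.04e-05 to 0.00648). The rises of the 7 peaks thus lay in a narrow range, and the summed levels of the 3 genotypes did not overlap. A run of the same size at chr10:79038741-79051575 also held 7 peaks, all of which fell in SAFB DKO (-3.09 to -2.22), and 2 of which rose in EZH2 KO.

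**Figure D5:**
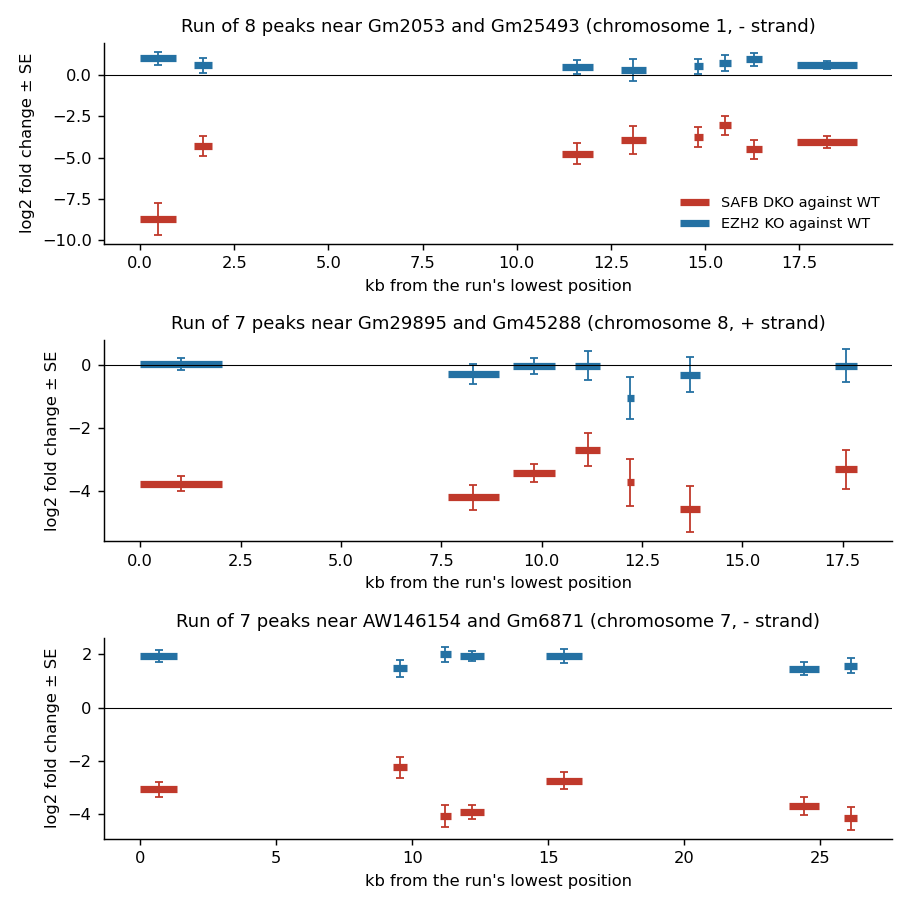
Log2 fold change with SE of each peak in the 3 largest runs, drawn as a bar over its extent in kb from the run's lowest position, for SAFB DKO against WT (red) and EZH2 KO against WT (blue). SAFB DKO values lie between -8.69 (a peak with no count in SAFB DKO, at least 42.2-fold lower) and -2.25 in all 22 peaks; EZH2 KO values lie between 0.30 and 1.01 in the first run, between -1.06 and 0.02 in the second and between 1.46 and 2.00 in the third.

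Genes of the pluripotency network were among the neighbours. Of 40 listed genes, 14 were the nearest gene of 20 intergenic peaks, and all 20 fell in SAFB DKO with a median of -3.39. In EZH2 KO 5 of the 20 rose, 0 fell and the median was 0.50. Over all 2554 intergenic peaks, 95.1% fell in SAFB DKO and 31.9% rose in EZH2 KO, with medians of -3.16 and 0.76. Klf4, a reprogramming factor, had a divergent peak 0.909 kb from its start (chr4:55533376-55534874, plus strand) at 1.28 and 1.45 CPM in SAFB DKO, 17.7 and 23.9 CPM in EZH2 KO, and 5.75, 4.09 and 4.07 CPM in WT. The peak fell in SAFB DKO (-1.76 ± 0.32, adjusted p = 0.000664) and rose in EZH2 KO (2.16 ± 0.27, adjusted p = 0.000107). A second peak, 7.61 kb from the start of Klf4 on that strand, did the same (-3.41 and 2.05, adjusted p = 0.000264 and 0.00249). The peak facing Zfp281, a repressor in stem cells, 10.7 kb away, was called in the same directions (-3.81 and 2.00, adjusted p = 0.000143 and 0.00317).

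Zfp42, which encodes the stem cell marker REX1, had a peak that began 0.037 kb beyond its 3′ end (chr8:43293984-43295025) at 2.65 and 2.91 CPM in SAFB DKO, 39.4 and 39.0 CPM in EZH2 KO, and 22.2, 18.9 and 20.5 CPM in WT. Here SAFB DKO fell (-2.88 ± 0.23, adjusted p = 1.31e-07) and EZH2 KO rose (0.93 ± 0.20, adjusted p = 0.00445). Upstream of Pou5f1, the gene of OCT4, a peak at 12.4 kb (chr17:35491965-35493606) had 1.64 and 2.85 CPM in SAFB DKO, 31.6 and 29.9 CPM in EZH2 KO, and 16.8, 18.4 and 14.8 CPM in WT. The level fell in SAFB DKO (-2.90 ± 0.28, adjusted p = 8.25e-07) and rose in EZH2 KO (0.88 ± 0.23, adjusted p = 0.0176). That rise missed the threshold without any 1 WT library (adjusted p 0.0528 to 0.0831) and with column totals as the scaling (0.0565).

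Some other pluripotency genes had peaks that fell in SAFB DKO and were not called in EZH2 KO. A peak that runs away from Lefty1, a Nodal antagonist, 11.3 kb from its start (chr1:180921352-180923722), had 3.47 and 3.07 CPM in SAFB DKO, 32.3 and 33.8 CPM in EZH2 KO, and 38.7, 36.9 and 36.9 CPM in WT. SAFB DKO fell (-3.52 ± 0.22, adjusted p = 1.46e-08), while EZH2 KO was at -0.18 ± 0.19 (adjusted p = 0.549). The peak 13.8 kb beyond Klf5, another Kruppel-like factor, had 0.137 and 0.538 CPM in SAFB DKO, 0.601 and 2.83 CPM in EZH2 KO, and 6.66, 3.53 and 5.27 CPM in WT. Both knockouts lay below WT there, and SAFB DKO passed the test (-3.95 ± 0.64, adjusted p = 0.000233) whereas EZH2 KO did not (-1.59 ± 0.58, adjusted p = 0.0728; 0.00273 without EZH2 KO replicate 2).

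Of 50 listed Polycomb target genes, Olig2 and Lhx9 were each the nearest gene of 1 peak. The Olig2 peak (chr16:91243783-91245365) had 0.319 and 0.484 CPM in SAFB DKO, 5.41 and 9.28 CPM in EZH2 KO, and 4.69, 4.09 and 2.35 CPM in WT, and fell in SAFB DKO (-3.20, adjusted p = 0.000168). The Lhx9 peak (chr1:138790974-138791448) had 0.274 and 0.861 CPM in SAFB DKO, 0.451 and 1.26 CPM in EZH2 KO, and 2.62, 2.45 and 2.98 CPM in WT. The Lhx9 peak fell in SAFB DKO (-2.25, adjusted p = 0.0116; 0.0545 to 0.137 without any 1 WT library or SAFB DKO replicate 1). Neither was called in EZH2 KO (adjusted p = 0.0969 and 0.0918). With 1 library left out, the Olig2 peak rose (1.25, adjusted p = 0.035 without EZH2 KO replicate 1) and the Lhx9 peak fell (-2.62, adjusted p = 0.0223 without EZH2 KO replicate 2).

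Of 30 listed imprinted or chromatin-linked noncoding RNA genes, 3 had an intergenic peak: Nespas, described above, Firre and Tsix. The peak 0.507 kb beyond Firre, an X-linked nuclear RNA, had 0 counts in both SAFB DKO libraries, 13 and 18 counts in EZH2 KO, and 77, 38 and 71 counts in WT (chrX:50554223-50555236). It was at least 40.7-fold lower in SAFB DKO than in WT (adjusted p = 2.08e-05) and was not called in EZH2 KO (-0.33, adjusted p = 0.707). The peak running past the 3′ end of Tsix, the antisense repressor of Xist, had 1.64 and 2.53 CPM in SAFB DKO, 32.02 and 64.6 CPM in EZH2 KO, and 29.5, 27.3 and 36.3 CPM in WT (chrX:103484296-103485737). That peak fell in SAFB DKO (-3.90 ± 0.33, adjusted p = 2.03e-07), and its EZH2 KO value was 0.64 ± 0.26 (adjusted p = 0.101; 0.00272 without EZH2 KO replicate 1).

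The peaks farthest from any gene kept the same direction. A peak at chr1:114776225-114777034, 442 kb from the nearest gene, had 0 and 0.0538 CPM in SAFB DKO, 5.41 and 8.96 CPM in EZH2 KO, and 2.39, 2.54 and 1.57 CPM in WT. It fell in SAFB DKO (-6.07 ± 0.82, adjusted p = 3.4e-05) and rose in EZH2 KO (1.72 ± 0.42, adjusted p = 0.0116; 0.057 to 0.0748 without EZH2 KO replicate 2 or WT replicate 1 or 3). The other 4 of the 5 farthest lay together on chromosome 18, 395 kb or more from any gene, and all 4 fell in SAFB DKO. One had no count in either SAFB DKO library, at least 29.2-fold lower than in WT, and the others were at -4.78 to -3.12. In EZH2 KO 2 of these 4 rose (1.07 and 1.09, adjusted p = 0.0363 and 0.0242). Neither rise was called without WT replicate 1 or 2 (adjusted p 0.101 to 0.126) or with column totals as the scaling (0.0691 and 0.0594). The first was also lost without WT replicate 3 (adjusted p = 0.116) and with TMM over all tested features (0.0563). Its log2 fold change was 0.22 without EZH2 KO replicate 2.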

How the data were processed

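RNA precipitated with an EZH2 antibody was measured in 7 libraries: 2 of SAFB DKO, 2 of EZH2 KO and 3 of WT, each from 1 clone or the parental line. The authors deposited whole-number read counts per interval, counted by strand (reverse setting) with featureCounts 2.0.3 in mm10, per the file headers and the submitters' processing notes; which aligner and peak caller were run is not given in the sources used here. Both deposited lists, short and filtered, hold intervals of that table. The parental WT library was matched to its column by the line's name. Another 5 value columns (3 of a control antibody, 2 pooled) were not used, and the deposited pooled WT count served only to describe the lists.

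Intervals were placed against GENCODE M21 and RefSeq (GRCm38.p6, the same assembly as mm10). The members and gene lists were chosen with earlier results of these data known. Counts were tested with edgeR 4.0.16 (R 4.3.3): filterByExpr, 1 quasi-likelihood fit of all 7 libraries by genotype, TMM scaling set on the 170869 features that passed and were not on the filtered list, and Benjamini-Hochberg adjustment over 192964 features at 0.05. The script was tested on simulated data. DESeq2 1.42.0, other scalings, filters, member rules and each library left out were the alternatives. Shares were compared by exact two-sided permutation over libraries. Intervals at the 95% level and the floor of 3 counts over a group cover counting error only, since no molecular identifiers were used.

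Peaks were named by rule: the 10 with the highest mean level, the 5 largest and 5 smallest called fold changes per comparison with groups apart, the 3 largest runs, the 5 highest fold changes in SAFB DKO and the 5 farthest from genes. Peaks near listed genes, the microRNA peak and those with start windows were added after values were seen. Base composition of the peaks themselves was not analysed here. One peak that the rule names is not reported here.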

Additional observations from a re-analysis of the deposited data

Results flagged for a closer look

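Some results differed between the knockouts by a direct comparison of SAFB DKO with EZH2 KO. The share of library counts in intergenic short-list peaks gave a log2 difference of -3.548 (SAFB DKO minus EZH2 KO), with every SAFB DKO library below and every EZH2 KO library above every WT library; the exact permutation p of 0.333 is the smallest for 2 against 2. Among single peaks, 798 fell in SAFB DKO and rose in EZH2 KO, both against WT. The share of all intervals tested that did both was not computed. Picking peaks by both calls all but fixes a call between the knockouts, which edgeR gave for all 798, so it adds no separate support. Of the 10 most abundant peaks, 9 fell in SAFB DKO and rose in EZH2 KO. Their log2 fold changes in SAFB DKO against EZH2 KO were -6.097 at Gm40040, -4.998 beyond Nespas, -4.553 near Trp53inp1, -4.431 near CT010496.1, -4.319 beyond Gm14403, -4.277 at Rbmxl2, -4.215 at 2700038G22Rik, -4.031 at CR555305.3 and -3.833 beyond Gm8940. The labels do not say whether the EZH2 KO libraries, whose columns are named by another pattern, were handled apart. Groups of 2 and 3 libraries are too small for a test of outlying samples.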

How the results depend on the processing

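The direction of the 3 counts of calls held under every alternative run: falls in SAFB DKO against WT numbered 2095 to 2526 with 1 library left out, those in SAFB DKO against EZH2 KO 2169 to 2365, with 0 to 4 rises. A mean of at least 50 counts left 1093 peaks. Of these, 1089 were called in SAFB DKO against WT and 1081 in SAFB DKO against EZH2 KO. In EZH2 KO 756 of them rose (69.2%, against 31.9% of all 2554). That mean takes in the EZH2 KO libraries, so the filter favours peaks high there, and the 69.2% adds no separate support. The median over all features moved with it in EZH2 KO against WT, from -0.209 to 0.104. The 1318 peaks over 5 kb from genes gave 1236 calls in SAFB DKO against WT and 1165 in SAFB DKO against EZH2 KO. EZH2 KO against WT was less stable. Of 875 calls (816 rises, 59 falls), a test against a fold of 1.5 left 503 (477 and 26), and peaks over 5 kb from genes gave 451 (409 rises). With 1 library left out, calls ranged from 501 to 1019, rises from 481 to 962 and falls from 13 to 225. Falls numbered 90 with column totals and 18 at a mean of at least 50 counts; the cause was not tested. With another scaling, the median over all features shifted by 0.0878 to 0.25 in SAFB DKO against WT, by -0.254 to 0.0118 in EZH2 KO against WT and by 0.218 to 0.469 in SAFB DKO against EZH2 KO.

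With the replicate block in EZH2 KO and WT, 712 peaks rose and 26 fell. Deviations of same-numbered libraries correlated at 0.0271 and 0.000575, so the numbers were not taken as pairs. For SAFB DKO no paired analysis was possible because its labels share only 1 number with the other groups. The difference in share of short-list counts between EZH2 KO and WT, -0.01 on the log2 scale, turned to 0.02055 over 5 kb from genes and ranged from -0.05794 to 0.04186 with 1 library left out (0.0144 without EZH2 KO replicate 2). The ratio to antisense peaks in SAFB DKO against WT, -0.03, turned to 0.05763 over 5 kb from genes, 0.005804 without the 10 most abundant peaks, and ranged from -0.06139 to 0.008759 with 1 library left out (0.005306 without WT replicate 3). Calls of the 92 named peaks were checked under other scalings, DESeq2, each library left out and, in EZH2 KO against WT, the replicate block. The test against a fold threshold, the other filters and unblocked fits of only the groups compared were not part of that check. Calls held throughout it for 74 of 86 peaks in SAFB DKO against WT and 34 of 48 in EZH2 KO against WT. In SAFB DKO against EZH2 KO they held for 78 of 82. Counts under 10 per library limit what the SAFB DKO levels can show.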

Other observations

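Some gene families were chosen after their values were seen and are given as counts only. The nearest gene was a Zfp gene, named for zinc finger proteins, for 109 peaks, of which 104 fell in SAFB DKO and 40 rose in EZH2 KO (medians -3.09 and 0.86). It was an olfactory receptor gene (Olfr) for 30 peaks, with 25 falls in SAFB DKO and 7 rises in EZH2 KO, and a vomeronasal receptor gene (Vmn) for 17, with 15 falls and 4 rises. Overall shares were 95.1% and 31.9%.

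A pair of peaks on opposite strands of chromosome 5, chosen after its values were seen, fell in both knockouts. The plus-strand peak (chr5:77001669-77002791) was at -3.49 in SAFB DKO and -1.93 in EZH2 KO, and the minus-strand peak (chr5:77001611-77002770) at -3.66 and -1.86. Their mean WT levels were 11.5 and 6.45 CPM. A peak that partly overlapped Cdk16 also fell in both (-2.99 in SAFB DKO and -1.85 in EZH2 KO, edgeR adjusted p = 5.59e-06 and 0.00189), with 1.60 and 1.67 CPM in SAFB DKO, 3.31 and 3.93 CPM in EZH2 KO, and 17.2, 9.46 and 12.5 CPM in WT.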
